A study of Homo sapiens with 14 samples.

Results

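The genes followed here encode subunits of the Polycomb repressive complexes PRC2 and PRC1. They were taken by symbol from a list of 10 genes, EZH1, EZH2, EED, SUZ12, JARID2, BMI1, RING1, CBX2, CBX7 and CBX8, and each was set, array by array, against CDKN2A and MKI67. Of the 10, 8 had a row of their own symbol, out of 18377 genes with such a row in a table of 28869 rows. BMI1 was found on 1 row that is also annotated to the readthrough transcript COMMD3-BMI1, so its value is given to that shared row and not to BMI1, and it is kept out of the counts of genes. No row was matched to CBX8, which is not analysed here.

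The RNA came from WI-38, a diploid fibroblast strain of human lung, cultured with weekly passaging at a fixed seeding number. The 14 arrays fall by label into 7 groups of 2: primary cells, described as passage 19, and 6 groups of cells immortalized with hTERT, the catalytic subunit of telomerase. Of these, 5 bear the letter A (passages 39, 50, 58, 67 and 95) and 1 the letter B (passage 96), and they are named here by letter and passage, from A39 to B96. No other introduced gene is named in the labels. The labels describe the duplicates as biological, but nothing says whether they were separate cultures, so p-values measure the spread between these arrays, which may be technical. The labels do not say what the letters stand for.

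Polycomb proteins keep developmental and growth-arrest genes silent. PRC2 adds methyl groups to a lysine of histone H3, through the enzymes EZH2 or EZH1, with EED, which binds the mark, and SUZ12, the scaffold, as core partners and JARID2 as a cofactor. PRC1 attaches ubiquitin to histone H2A through RING1 or its paralogue, with BMI1 as the partner of the ligase, and carries CBX proteins, whose chromodomains read the PRC2 mark. The CDKN2A locus, which encodes the cell cycle inhibitor p16 and the protein ARF, is a classical Polycomb target in fibroblasts, and EZH2 is known as a gene that cycling cells express more than resting ones. MKI67 marks cycling cells. The CDKN2A row is annotated to transcripts of both p16 and ARF.

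The labels and the arrays were at odds. TERT read 7.07 in the array labelled primary replicate 1 and 11.70 in the array labelled primary replicate 2, against 10.67 to 12.18 in the 12 arrays labelled hTERT, so replicate 2 of the primary label had a TERT value within the range of the immortalized cells. None of the 14 arrays (0) was most similar to the array sharing its label, while 5 pairs of differently labelled arrays were each other's closest partner (Pearson r across rows of 0.986 to 0.993, against 0.945 to 0.983 for the 7 labelled pairs). Each of these 5 pairs joined replicate 2 of 1 label to replicate 1 of the next label in passage order. Whether titles were exchanged between arrays was not tested, and the labels are used as given, so group means, contrasts and the passage trend hold only if the labels do, while the relations with MKI67 and CDKN2A over all 14 arrays use no label. All 7 fibroblast markers were bright (row means of 10.47 for PDGFRB to 13.11 for COL1A1). The 10 markers of epithelial, endothelial, blood and muscle cells averaged 6.42 to 7.08 per array as a list. No detection calls say which of these are above background. Within the list, MYOD1, SCGB1A1, PECAM1 and SFTPC reached 8.58, 8.53, 8.44 and 7.96, each in A95 replicate 2 and above every array median. CDH5 was also highest in that array, at 6.43. EPCAM, CDH1, KRT5, PTPRC and CD3E were highest in other arrays and, like CDH5, stayed below every array median. Array medians lay between 7.26 and 7.48. All values below are log2 values as the authors deposited them, and a difference of 1 is a doubling on the array's scale. Levels of different genes are not compared with each other.

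EZH2, the main PRC2 methyltransferase of cycling cells, had the widest range among the members, 1.89 log2, a range that 7.8% of all rows reached, where the median range of all rows was 0.85. EZH2 read 9.86 and 9.17 in the primary-labelled arrays, 9.12 and 8.26 at A39, 8.33 and 8.48 at A50, 8.40 and 9.65 at A58, 9.60 and 10.10 at A67, 10.15 and 9.71 at A95, and 9.74 and 9.44 at B96. The lowest 4 values were those of A39 replicate 2, both A50 arrays and A58 replicate 1, and the highest were A95 replicate 1 and A67 replicate 2. The arrays labelled A58 differed by 1.25, more than any other labelled pair for this gene.

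The 4 arrays lowest for EZH2 were also the 4 lowest for MKI67, which read 8.79 in A39 replicate 2, 8.84 in A50 replicate 1, 9.40 in A58 replicate 1 and 9.53 in A50 replicate 2. The other 10 arrays had MKI67 values of 10.13 to 10.91 and EZH2 values of 9.12 to 10.15. A slope on MKI67 was fitted to every row over the 14 arrays with limma, with Benjamini-Hochberg adjustment over all 28868 rows other than MKI67 itself. EZH2 had a slope of 0.88 ± 0.073 (SE) log2 per log2 of MKI67 with an adjusted p of 2.7e-06, larger than that of 99.5% of rows. At this threshold of 0.05, 6.46% of all rows passed, 3.94% with a positive slope. Of a list of 20 proliferation genes, 19 passed with positive slopes, and the median slope of the list was 0.765. Pearson's r of EZH2 with MKI67 was 0.96 and Spearman's rho 0.94 over the 14 arrays (permutation p of 1e-05 for each, the smallest that the permutations can give), among 18 relations of members and the shared row with MKI67 and CDKN2A. Without the 2 arrays farthest from the median of MKI67, A39 replicate 2 and A50 replicate 1, r was 0.97 (permutation p of 1e-05).

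The relation did not rest on the gap between the 4 arrays and the rest. Over the 10 arrays with MKI67 above 10 the r was 0.92 and the slope 1.21 ± 0.21 (limma adjusted p of 0.034), and over the 10 arrays labelled A the r was 0.97. Closest partners are not independent points, and averaging each of the 5 pairs to leave 9 points gave an r of 0.97 and a slope of 0.91 ± 0.096 (limma adjusted p of 0.0020). The averaging left A67 replicate 2 and A95 replicate 1 as separate points, although EZH2 read 10.10 and 10.15 there and MKI67 10.91 and 10.88. The 9 points may therefore not be independent either. EZH2 passed in all 29 alternatives tried. In RNA from a whole culture, fewer cells with a transcript and less of it per cell cannot be told apart.

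EZH1, the other PRC2 methyltransferase and the one known from resting cells, varied far less, over 0.52 log2. EZH1 read 8.28 and 8.58 in the primary-labelled arrays, 8.47 and 8.64 at A39, 8.60 and 8.79 at A50, 8.80 and 8.67 at A58, 8.43 and 8.38 at A67, 8.30 and 8.71 at A95, and 8.42 and 8.70 at B96. Its slope on MKI67 was -0.13 ± 0.063 (limma adjusted p of 0.30), with an r of -0.55 (permutation p of 0.044 before any adjustment). EZH1 was not shown to fall with MKI67, but the pair of enzymes differed: the within-array difference EZH2 minus EZH1 had a slope on MKI67 of 1.01 (permutation p of 1e-05, 1.5e-05 after Benjamini-Hochberg over 3 such differences), and 0.96 to 1.10 with each array left out. These permutations treat arrays as independent, which closest partners are not. The p-values of the 3 differences are therefore too small, and none was refitted with closest partners averaged.

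**Figure D1:**
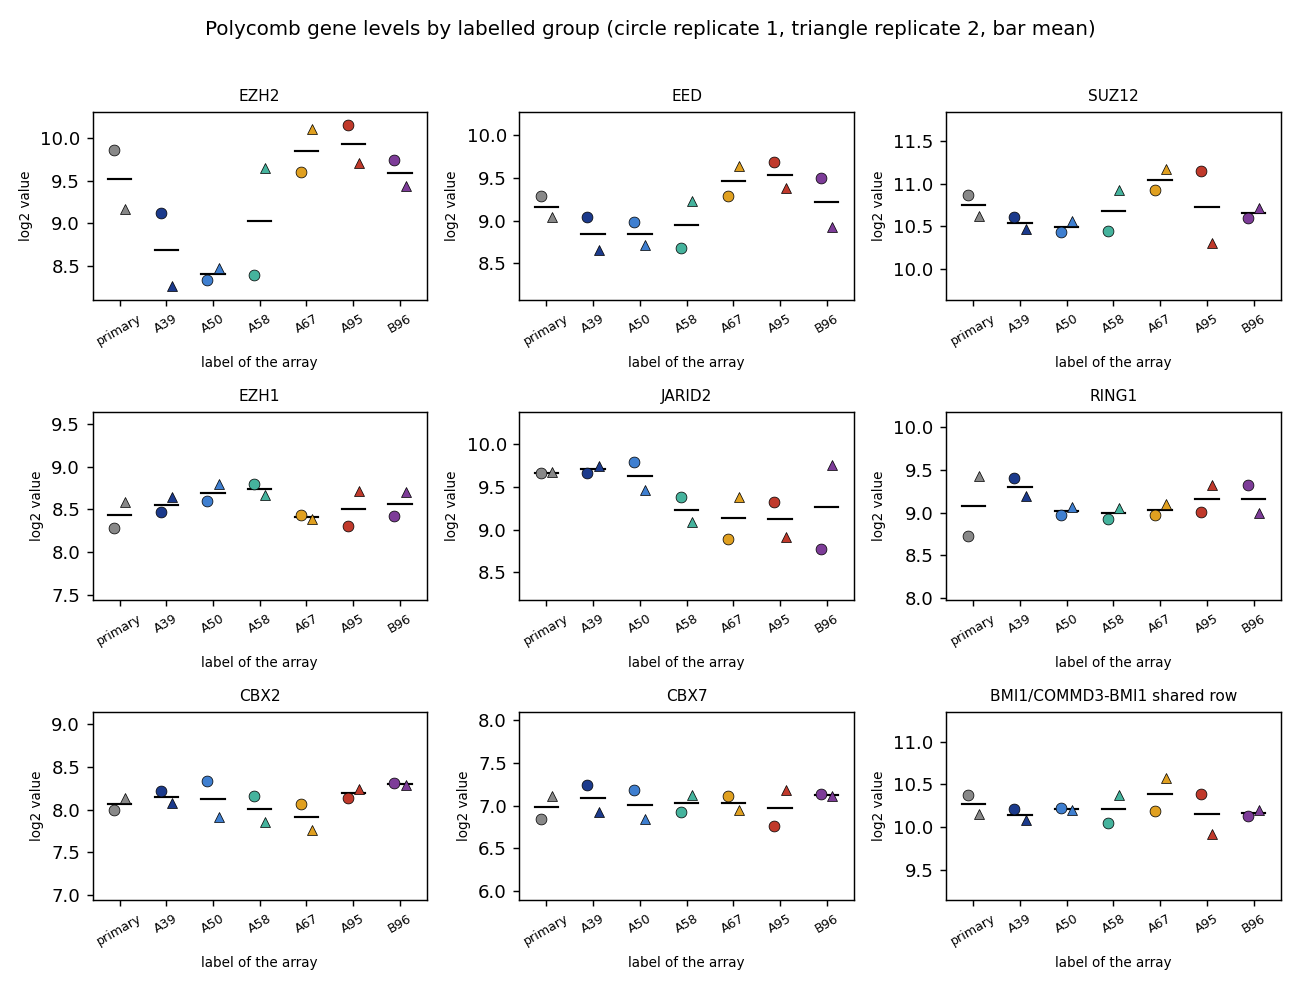
Log2 value (y axis, each panel spanning the same width of 2.2 log2) of 8 Polycomb genes and the row shared by BMI1 and COMMD3-BMI1 in the 14 arrays, by label (x axis, from passage 19 to 96). Circles are replicate 1, triangles replicate 2 and bars the mean of the pair. EZH2 runs from 8.26 to 10.15, and its A58 arrays lie 1.25 apart, while EZH1 and CBX7 stay within 0.52 and 0.48.

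EED, which binds methylated histone H3 and stimulates the enzyme, read 9.29 and 9.04 in the primary-labelled arrays, 9.04 and 8.66 at A39, 8.98 and 8.72 at A50, 8.68 and 9.23 at A58, 9.29 and 9.64 at A67, 9.69 and 9.38 at A95, and 9.50 and 8.93 at B96. Its highest arrays were those of EZH2, A95 replicate 1 and A67 replicate 2. EED had a slope of 0.38 ± 0.079 on MKI67 with a limma adjusted p of 0.0080, an r of 0.81 (permutation p of 3e-04) and a rho of 0.86 (permutation p of 1.9e-04). The slope was smaller than that of EZH2, since EZH2 minus EED had a slope of 0.50 (permutation p of 1e-05, 1.5e-05 adjusted over the 3 differences). Averaging closest partners ended the EED call (slope 0.41, limma adjusted p of 0.12), and so did the restriction to the 10 arrays with MKI67 above 10 (slope 0.75, limma adjusted p of 0.17).

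SUZ12, the scaffold of the complex, read 10.87 and 10.62 in the primary-labelled arrays, 10.61 and 10.47 at A39, 10.43 and 10.56 at A50, 10.44 and 10.93 at A58, 10.92 and 11.17 at A67, 11.15 and 10.31 at A95, and 10.60 and 10.71 at B96. The highest were again A67 replicate 2 and A95 replicate 1, but the lowest of all 14 was A95 replicate 2, where EZH2 read 9.71 and MKI67 10.55. SUZ12 had a slope of 0.26 ± 0.077 on MKI67, which missed the threshold (limma adjusted p of 0.063), with an r of 0.70 (permutation p of 0.0058) and a rho of 0.80 (permutation p of 0.0011). A95 replicate 2 lay 0.49 below the fitted line and its closest partner B96 replicate 1 lay 0.19 below it, where the residual SD was 0.20. Without A95 replicate 2 the slope was 0.29 (limma adjusted p of 0.0095), and without both arrays 0.30 (limma adjusted p of 0.0036). SUZ12 passed on MKI67 in 8 of 29 alternatives, not only in those that left out arrays (limma adjusted p of 9.5e-04 to 0.76 over the 29). EZH2 minus SUZ12 had a slope of 0.62 on MKI67 (permutation p of 4e-05, also after adjustment over the 3 differences).

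**Figure D2:**
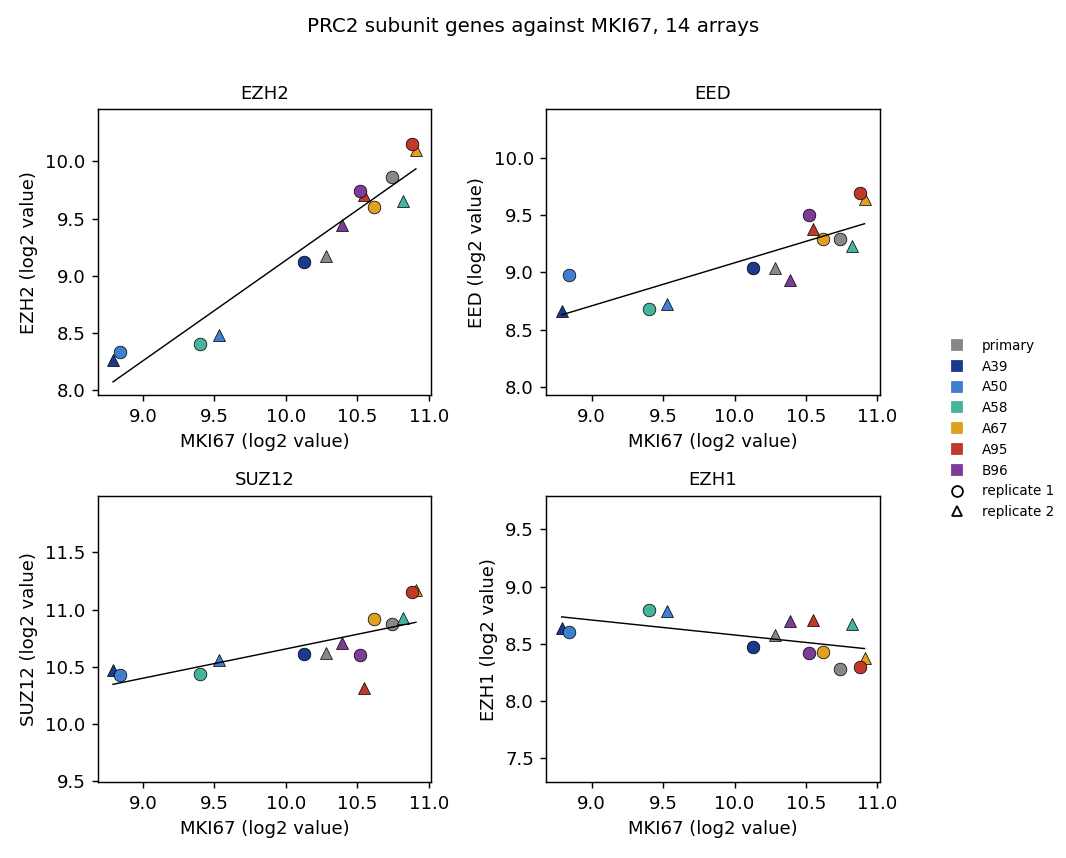
Log2 value of EZH2, EED, SUZ12 and EZH1 (y axes, each of the same width) against MKI67 (x axes) in the 14 arrays, with colours for labels, circles for replicate 1, triangles for replicate 2 and a least-squares line. EZH2 follows MKI67 with an r of 0.96, EED with 0.81 and SUZ12 with 0.70, with A95 replicate 2 below the SUZ12 line, and EZH1 has an r of -0.55.

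The promoters of these 4 genes are shown because 3 of them, EZH2, EED and SUZ12, had their highest values in the same pair of arrays as MKI67. They are RefSeq sequences of GRCh38.p14, the 250 bases before the transcript start and the first 50 of the transcript, read on the gene's own strand. Capitals mark a match to the E2F site, the element bound by the E2F factors of the G1/S transition, searched on both strands as TTTCCCGC, TTTCGCGC, TTTGCCGC or TTTGGCGC. Such a match is present in 3.3% of 35116 promoters of this length, and in at least 1 promoter of 4.0% of 27305 genes. Of the 10 members, 8 had promoters in the table, 11 in all, and a match was found for EZH2, SUZ12 and EZH1. The MKI67 promoter has 0 such matches. CCAAT, present on either strand in 34.6% of promoters, was also searched. It occurs 4 times in the EZH2 promoter below, 1 time each in EED and SUZ12, 2 times in MKI67 and 0 times in EZH1. TTTGAA or TTCGAA, present on either strand in 16.4%, occurs 1 time in SUZ12, 2 times in MKI67 and 0 times in EZH2, EED and EZH1.
EZH2, chr7:148884242-148884541, minus strand: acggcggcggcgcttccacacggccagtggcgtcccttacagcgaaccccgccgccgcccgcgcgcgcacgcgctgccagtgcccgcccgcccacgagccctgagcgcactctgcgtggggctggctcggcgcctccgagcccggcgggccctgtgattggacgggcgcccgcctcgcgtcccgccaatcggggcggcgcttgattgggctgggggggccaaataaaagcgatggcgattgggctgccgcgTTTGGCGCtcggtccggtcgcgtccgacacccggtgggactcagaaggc
EED, chr11:86244503-86244802, plus strand: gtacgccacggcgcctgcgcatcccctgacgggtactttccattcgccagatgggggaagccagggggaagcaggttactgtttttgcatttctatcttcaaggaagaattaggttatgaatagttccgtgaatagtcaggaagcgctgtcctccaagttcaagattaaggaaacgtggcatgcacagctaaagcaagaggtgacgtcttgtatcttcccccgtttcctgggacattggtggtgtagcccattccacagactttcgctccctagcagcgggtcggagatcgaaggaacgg
SUZ12, chr17:31936757-31937056, plus strand: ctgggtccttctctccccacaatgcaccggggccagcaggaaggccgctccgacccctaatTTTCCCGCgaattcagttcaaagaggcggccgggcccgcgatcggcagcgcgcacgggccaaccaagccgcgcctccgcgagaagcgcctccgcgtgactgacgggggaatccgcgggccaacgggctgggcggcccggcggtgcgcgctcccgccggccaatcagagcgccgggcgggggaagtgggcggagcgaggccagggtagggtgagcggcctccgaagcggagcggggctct
EZH1, chr17:42744991-42745290, minus strand: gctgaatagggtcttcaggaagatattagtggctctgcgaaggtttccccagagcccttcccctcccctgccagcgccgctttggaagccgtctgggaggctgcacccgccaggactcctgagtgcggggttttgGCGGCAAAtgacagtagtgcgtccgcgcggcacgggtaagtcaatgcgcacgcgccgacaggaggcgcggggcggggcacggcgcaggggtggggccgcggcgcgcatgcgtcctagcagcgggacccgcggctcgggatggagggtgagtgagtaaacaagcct
With the first transcribed base counted as 1, the match TTTGGCGC starts at base 2 in EZH2, TTTCCCGC at base -189 in SUZ12, and GCGGCAAA, the reverse complement of TTTGCCGC, at base -115 in EZH1. EZH1 has a match and missed the threshold on MKI67, while EED has none in this window and passed it. Whether these letters bear on the slopes was not tested. A second EZH2 promoter in the table has no match. A match is a description of letters, not a bound site, and a window without one says nothing about the factor. The array table carries no coordinates, so these belong to the RefSeq sequences alone.

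JARID2, a PRC2 cofactor that helps to recruit the complex, followed another course. JARID2 read 9.66 and 9.68 in the primary-labelled arrays, 9.67 and 9.75 at A39, 9.79 and 9.46 at A50, 9.38 and 9.09 at A58, 8.89 and 9.38 at A67, 9.33 and 8.91 at A95, and 8.77 and 9.76 at B96. The lowest 4 arrays were B96 replicate 1, A67 replicate 1, A95 replicate 2 and A58 replicate 2, which form 2 of the 5 pairs of closest partners, and B96 replicate 2 stood at the level of the primary, A39 and A50 replicate 1 arrays. The arrays labelled B96 thus differed by 0.99, nearly the whole range of 1.02. JARID2 had a slope of -0.24 ± 0.11 on MKI67 (limma adjusted p of 0.29) and an r of -0.50 (permutation p of 0.068), which was -0.26 without the 2 arrays farthest on MKI67. Its correlation with EZH2 over the 14 arrays was -0.48 and with SUZ12 -0.13, while that of EZH2 with EED was 0.91 and with SUZ12 0.71.

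Among the PRC1 genes, none of the 3 with rows of their own passed the fit on MKI67. RING1, a ubiquitin ligase of histone H2A, read 8.73 and 9.43 in the primary-labelled arrays, 9.41 and 9.19 at A39, 8.97 and 9.06 at A50, 8.93 and 9.05 at A58, 8.97 and 9.10 at A67, 9.01 and 9.32 at A95, and 9.32 and 9.00 at B96. Its lowest value was that of primary replicate 1, the array with the low TERT value, and its highest that of primary replicate 2. A second RING1 row differed from this one by 0.05 to 0.15 in every array. RING1 had a slope on MKI67 of 0.00 ± 0.080, and over the 10 arrays with MKI67 above 10 its slope was -0.56 ± 0.25 (limma adjusted p of 0.34) and its r -0.64.

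CBX7, a chromodomain reader known as a repressor of CDKN2A, had the narrowest range, 0.48 log2, and 91.4% of all rows ranged at least as widely. CBX7 read 6.84 and 7.12 in the primary-labelled arrays, 7.24 and 6.93 at A39, 7.18 and 6.84 at A50, 6.93 and 7.13 at A58, 7.12 and 6.95 at A67, 6.76 and 7.18 at A95, and 7.14 and 7.12 at B96. All 14 values lie below the array medians, and no detection call says whether they are above background. CBX2, another reader of this family, read 7.99 and 8.13 in the primary-labelled arrays, 8.22 and 8.08 at A39, 8.33 and 7.91 at A50, 8.16 and 7.86 at A58, 8.06 and 7.76 at A67, 8.14 and 8.24 at A95, and 8.31 and 8.29 at B96. CBX7 had a slope on MKI67 of 0.00 ± 0.065 and CBX2 of -0.07 ± 0.069, with limma adjusted p of 1 and 0.72. Over the 10 arrays with MKI67 above 10 their slopes were -0.42 ± 0.20 and -0.47 ± 0.21, with r of -0.71 and -0.68, and neither passed (limma adjusted p of 0.36 and 0.35).

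The row shared by BMI1 and COMMD3-BMI1 read 10.38 and 10.15 in the primary-labelled arrays, 10.21 and 10.08 at A39, 10.22 and 10.20 at A50, 10.05 and 10.38 at A58, 10.19 and 10.58 at A67, 10.39 and 9.92 at A95, and 10.13 and 10.20 at B96. Its highest array, A67 replicate 2, and its lowest, A95 replicate 2, were those of SUZ12, with which it had an r of 0.88 over the 14 arrays. Its slope on MKI67 was 0.11 ± 0.064 (limma adjusted p of 0.45). In all, 2 of the 8 genes with rows of their own passed the fit on MKI67, both with positive slopes, against 6.46% of all rows (3.94% positive and 2.51% negative), and the median slope of the 8 was 0.00, against -0.012 for all rows. The genes that passed were EZH2 and EED.

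**Figure D3:**
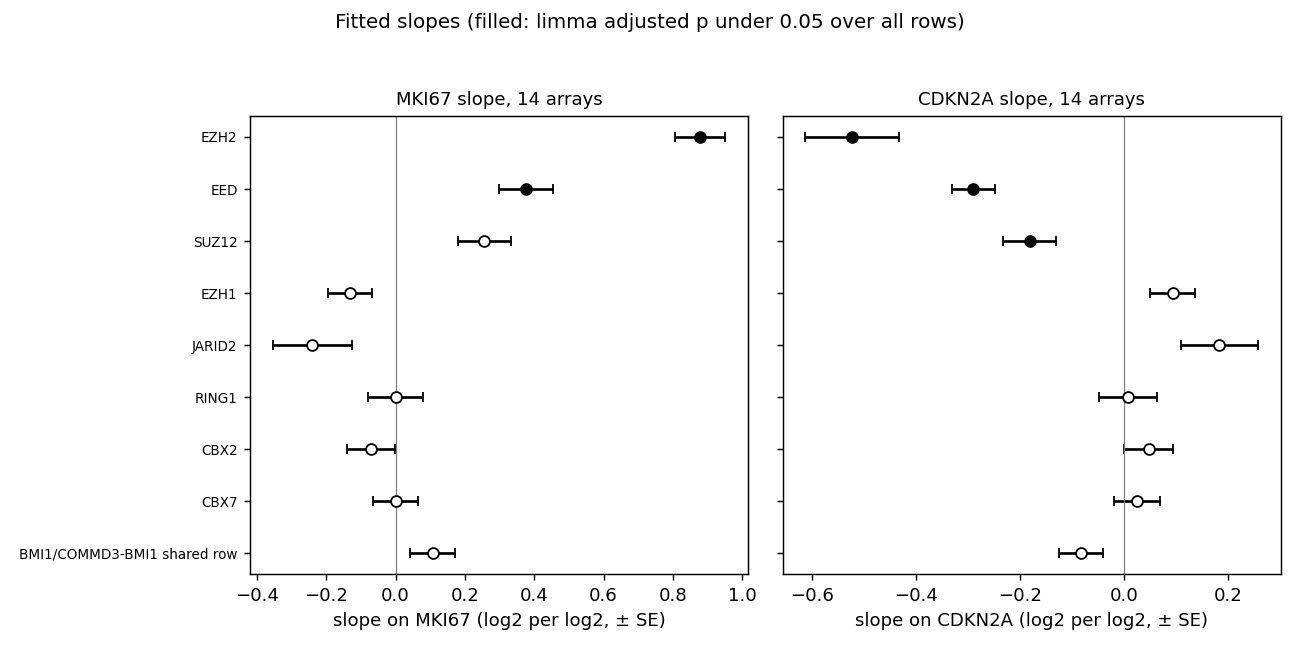
Slope of each Polycomb gene on MKI67 (left) and on CDKN2A (right), in log2 per log2 with SE, fitted with limma over 14 arrays. Filled points passed an adjusted p of 0.05 over all rows: EZH2 at 0.88 and EED at 0.38 on MKI67, and EZH2 at -0.52, EED at -0.29 and SUZ12 at -0.18 on CDKN2A.

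Against CDKN2A, the PRC2 core genes EZH2, EED and SUZ12 had negative slopes past the threshold. CDKN2A read 8.80 and 9.29 in the primary-labelled arrays, 9.25 and 9.59 at A39, 9.30 and 9.46 at A50, 9.42 and 8.10 at A58, 7.85 and 6.33 at A67, 6.54 and 7.84 at A95, and 7.79 and 8.87 at B96. The lowest arrays, A67 replicate 2 and A95 replicate 1, were those with the highest EZH2, EED and SUZ12. EED had a slope of -0.29 ± 0.041 (SE) log2 per log2 of CDKN2A with a limma adjusted p of 7.5e-04 and an r of -0.92 (permutation p of 1e-05, the smallest possible), and without the 2 arrays farthest from the median of CDKN2A, A67 replicate 2 and A95 replicate 1, its r was -0.88 (permutation p of 1.9e-04). EZH2 had a slope of -0.52 ± 0.090 (limma adjusted p of 0.0026) and an r of -0.84 (permutation p of 1.8e-04), which was -0.82 without those 2 arrays. With closest partners averaged, EED still passed (slope -0.27, limma adjusted p of 0.025) and EZH2 did not (slope -0.46, limma adjusted p of 0.059). That averaging kept A67 replicate 2 and A95 replicate 1, the arrays lowest for CDKN2A, as separate points. EED read 9.64 and 9.69 in them, so they may not be independent.

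SUZ12 just passed, with a slope of -0.18 ± 0.051 on CDKN2A and a limma adjusted p of 0.044. It passed in 11 of 28 alternatives, with adjusted p of 5.6e-04 to 0.63 over them. Leaving out any 1 array other than primary replicate 1, A95 replicate 2 or B96 replicate 1 ended the call (limma adjusted p of 0.051 to 0.18). The r of SUZ12 with CDKN2A was -0.72 (permutation p of 0.0035, with a rho of -0.59). It was -0.35 (permutation p of 0.26) without A67 replicate 2 and A95 replicate 1, the arrays lowest for CDKN2A. EZH2, EED and SUZ12 were 3 of 8 genes, all 3 with negative slopes, where 7.21% of all rows passed, 3.72% with negative and 3.49% with positive slopes, and the median slope of the 8 was 0.017, against -0.004 for all rows. The slopes of the other genes were 0.09 ± 0.043 for EZH1, 0.18 ± 0.074 for JARID2, 0.008 ± 0.055 for RING1, 0.05 ± 0.047 for CBX2 and 0.025 ± 0.044 for CBX7, and none of the 5 passed (limma adjusted p of 0.18 for JARID2, the smallest). JARID2 stood between its extremes in A67 replicate 2 and A95 replicate 1 (9.38 and 9.33), and without them its slope was 0.47 ± 0.086 with a limma adjusted p of 0.0082 and its r 0.87 (permutation p of 0.0012). JARID2 passed on CDKN2A in this 1 of 28 alternatives alone, and its r was 0.51 with closest partners averaged. The shared row of BMI1 and COMMD3-BMI1 had a slope of -0.08 ± 0.042, and its r of -0.53 was 0.02 without A67 replicate 2 and A95 replicate 1.

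CDKN2A and MKI67 were themselves related, with an r of -0.74 (permutation p of 0.0034), a rho of -0.89 (permutation p of 7e-05), and an r of -0.77 without the 2 arrays farthest on MKI67. With both levels in the fit, EZH2 kept a slope of 0.69 ± 0.089 on MKI67 (limma adjusted p of 0.0012), while its slope on CDKN2A was -0.17 ± 0.061 (limma adjusted p of 0.32). EED passed for neither in that fit, with 0.13 ± 0.084 on MKI67 (limma adjusted p of 0.66) and -0.22 ± 0.057 on CDKN2A (limma adjusted p of 0.15). In that fit 233 rows passed for MKI67 and 127 for CDKN2A, against 1864 and 2082 in the fits with 1 level. For SUZ12 the values in that fit were 0.13 on MKI67 and -0.11 on CDKN2A, neither past the threshold. Of the 7 fibroblast markers, 5 had positive slopes past the threshold on CDKN2A, where 3.49% of all rows did (THY1 0.44 ± 0.079 and PDGFRB 0.33 ± 0.070, limma adjusted p of 0.0035 and 0.0095) and 2, COL3A1 and THY1, negative ones on MKI67, where 2.51% of all rows did, while 0 of 10 markers of other cell types passed on either. The part of these shifts in the slopes of EZH2, EED and SUZ12 was not tested.

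**Figure D4:**
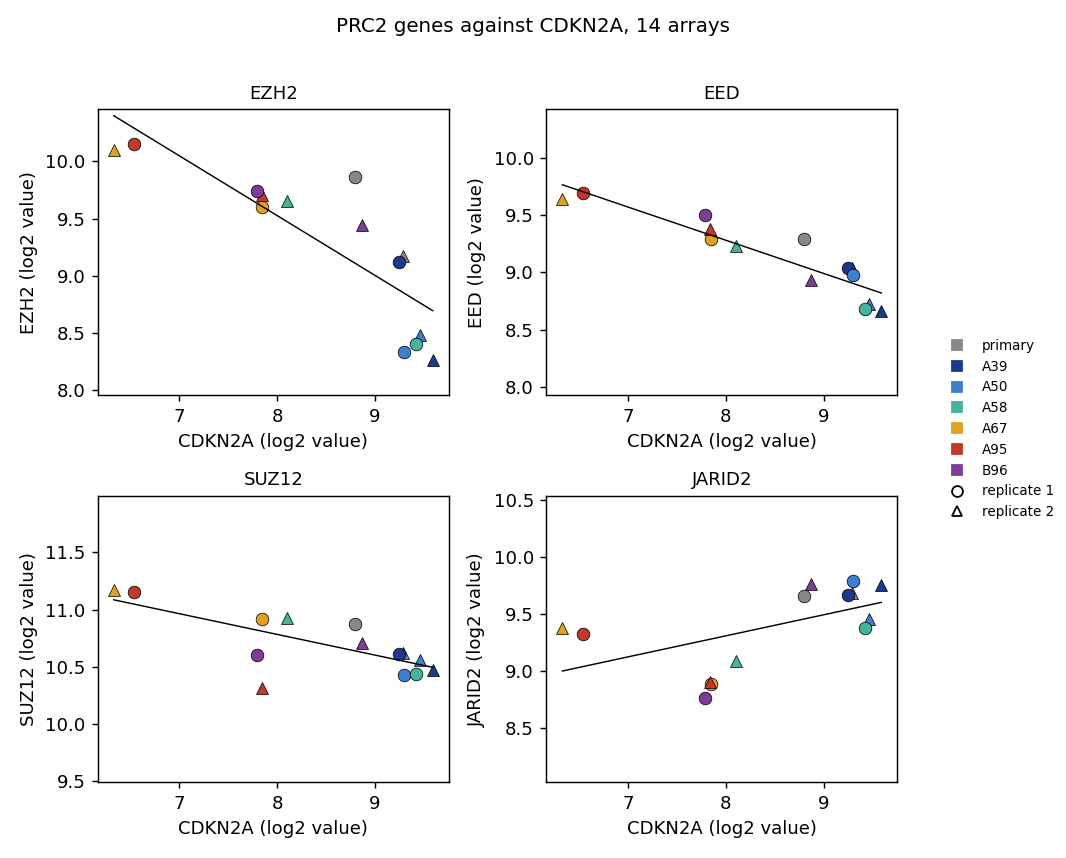
Log2 value of EZH2, EED, SUZ12 and JARID2 (y axes, each of the same width) against CDKN2A (x axes) in the 14 arrays, with colours for labels, circles for replicate 1, triangles for replicate 2 and a least-squares line. A67 replicate 2 and A95 replicate 1 lie at the left of each panel, with CDKN2A at 6.33 and 6.54 and the highest EED, EZH2 and SUZ12. JARID2 is lowest at middle values of CDKN2A.

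Between the labelled groups no member passed. For A95 versus A39, EZH2 averaged 9.93 ± 0.31 in A95 and 8.69 ± 0.61 in A39 (SD, n = 2 each), a difference of 1.24 ± 0.42 (SE) with a limma adjusted p of 0.53. EED averaged 9.54 ± 0.22 in A95 and 8.85 ± 0.27 in A39, a difference of 0.69 ± 0.27, and JARID2 9.12 ± 0.30 in A95 and 9.71 ± 0.057 in A39, a difference of -0.59 ± 0.31 (limma adjusted p of 0.53 and 0.56). For EZH2, EED and JARID2, 3 of the 8 genes, the arrays of A95 and A39 did not overlap, and this held for 38.1% of all rows. In this contrast 0% of all 28869 rows passed, with 2660 below an unadjusted p of 0.05, where chance alone gives 1443.

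For A39 versus primary, EZH2 averaged 8.69 ± 0.61 in A39 and 9.52 ± 0.49 in the primary-labelled arrays, a difference of -0.82 ± 0.42 (limma adjusted p of 1), and 0% of rows passed, with 347 below an unadjusted p of 0.05, fewer than the 1443 that chance alone gives. The lack of calls therefore does not show equal levels. Leaving out A39 replicate 2 gave -0.40, leaving out A39 replicate 1 gave -1.25, and leaving out primary replicate 2, the one with the high TERT value, gave -1.17. For B96 versus A95, EZH2 averaged 9.59 ± 0.21 in B96 and 9.93 ± 0.31 in A95, a difference of -0.34 ± 0.42 (limma adjusted p of 1), and again 0% of rows passed, with 659 below an unadjusted p of 0.05, also fewer than 1443. SUZ12 averaged 10.66 ± 0.078 in B96 and 10.73 ± 0.59 in A95, and JARID2 9.27 ± 0.70 in B96 and 9.12 ± 0.30 in A95, where the SUZ12 arrays of A95 lay 0.84 apart and the JARID2 arrays of B96 0.99 apart. These contrasts share the A39 or the A95 arrays, and in A39 versus primary and in B96 versus A95 mutually closest arrays stand on opposite sides.

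Over the 10 arrays labelled A, with passage as a number, none of the 8 genes passed, where 0.281% of all rows did (0.0416% with rising and 0.239% with falling values). EZH2 had a slope of 0.27 ± 0.080 (SE) log2 per 10 passages with a limma adjusted p of 0.13, larger than that of 99.3% of rows. EED had a slope of 0.14 ± 0.042, JARID2 of -0.11 ± 0.040 and SUZ12 of 0.05 ± 0.048, with limma adjusted p of 0.14, 0.19 and 0.60. With the MKI67 level added to the fit, the slope of EZH2 on passage was 0.06 ± 0.042 (limma adjusted p of 0.43).

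Most members differed less between closest partners than between arrays of 1 label. EZH2 differed by 0.03 to 0.08 within the 5 pairs of closest partners and by 0.15 to 1.25 within the 7 pairs sharing a label. EED differed by a median of 0.06 within partners and 0.35 within labels, SUZ12 by 0.04 and 0.25, and JARID2 by 0.08 and 0.33. CBX2 went the other way, with a median of 0.20 within partners and 0.14 within labels. The partners were chosen for their similarity over all rows, so smaller differences within them are no test.

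**Figure D5:**
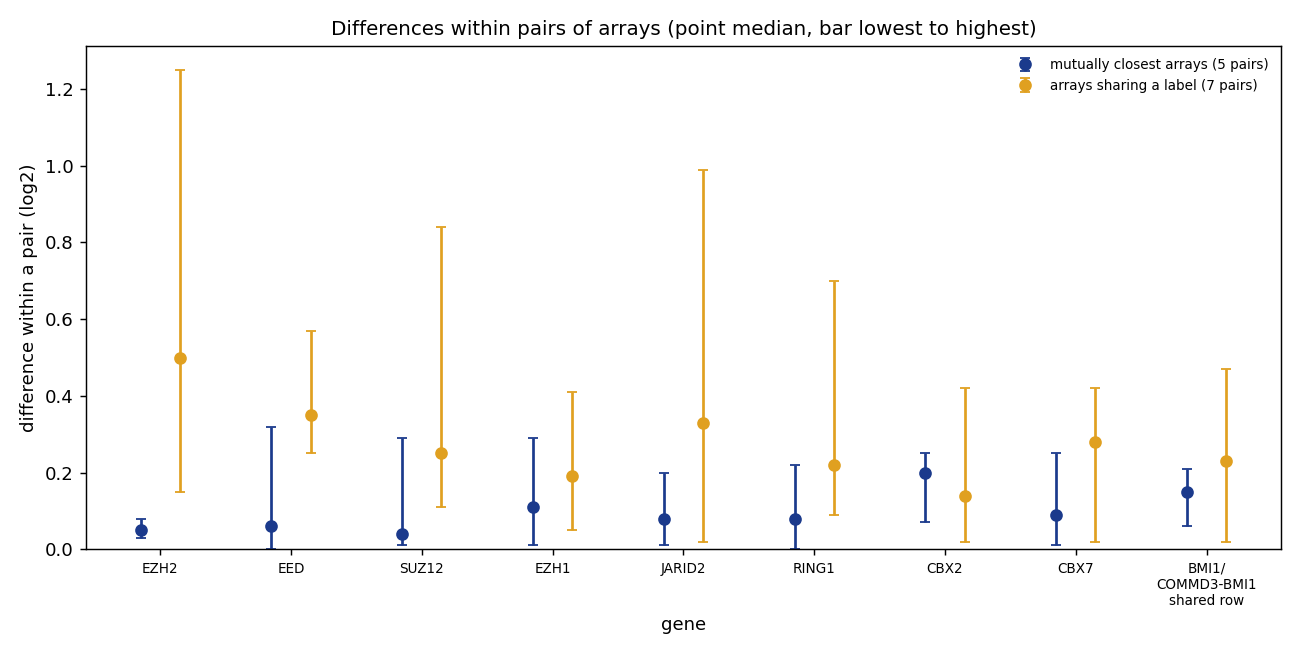
Absolute log2 difference within pairs of arrays (y axis) for 8 Polycomb genes and the shared row (x axis). Points are medians and bars run from the lowest to the highest, left (blue) for the 5 pairs of mutually closest arrays and right (orange) for the 7 pairs with the same label. EZH2 has a median of 0.05 in the first kind of pair and 0.50 in the second.

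Other Polycomb genes were fitted on MKI67 and CDKN2A in the same way. Of 9 listed PRC2 partners, all measured, 2 had positive slopes past the threshold on MKI67, where 3.94% of all rows did, and none (0) a negative one, with a median of 0.071 against -0.012 for all rows. PHF19, an accessory subunit that binds methylated histone H3, had a slope of 0.54 ± 0.081 (limma adjusted p of 5.6e-04) and read 9.01 and 8.98 in the primary-labelled arrays, 8.98 and 8.56 at A39, 8.42 and 9.00 at A50, 8.82 and 9.62 at A58, 9.59 and 9.82 at A67, 9.77 and 9.51 at A95, and 9.52 and 9.38 at B96. PHF19 was highest in A67 replicate 2 and A95 replicate 1, the arrays highest for EZH2, EED and SUZ12, and lowest in A50 replicate 1 and A39 replicate 2. MTF2, a paralogue of PHF19, had a slope of 0.27 ± 0.076 (limma adjusted p of 0.046), a call lost in 17 of 29 alternatives and kept, of the arrays left out in turn, only without A50 replicate 1, A95 replicate 2, B96 replicate 1 or B96 replicate 2.

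Of 25 listed PRC1 partners 23 were measured, and 1 passed on MKI67, a share near the 6.46% of all rows. It was SCML2, a sterile alpha motif protein, with a slope of 0.28 ± 0.078 (limma adjusted p of 0.041), lost in 15 of 29 alternatives and, of the arrays left out in turn, kept only without primary replicate 1, A58 replicate 2, A67 replicate 1, A95 replicate 2 or B96 replicate 2. Of 10 listed deubiquitinase and histone H3 demethylase genes 9 were measured, and 1 passed on MKI67 (2.51% of all rows passed with a negative slope). MBD5, a methyl-CpG-binding domain protein associated with the Polycomb deubiquitinase, had a slope of -0.35 ± 0.060 (limma adjusted p of 0.0018). MBD5 read 8.48 and 8.41 in A39 replicate 2 and A50 replicate 1, its highest arrays, and 7.57 and 7.58 in A95 replicate 2 and A95 replicate 1, its lowest. On CDKN2A, 2 of 9 PRC2 partners, 2 of 23 PRC1 partners and 2 of 9 genes of the third list passed, where 7.21% of all rows did, so the PRC1 share was near that of all rows. Those not named above are named here after their values were seen. RBBP7, a histone-binding chaperone, had a slope of -0.17 ± 0.037 and E2F6, a repressor of the E2F family found in a PRC1 variant, of -0.15 ± 0.033, with limma adjusted p of 0.013 each. FOXK1, a forkhead factor of the deubiquitinase complex, had 0.15 ± 0.037 (limma adjusted p of 0.024). PHF19 had -0.36 ± 0.057, SCML2 -0.20 ± 0.053 and MBD5 0.21 ± 0.051 on CDKN2A (limma adjusted p of 0.0013, 0.032 and 0.019). Leaving out A95 replicate 1 ended the calls on CDKN2A of RBBP7 (0.051), FOXK1 (0.13), SCML2 (0.055) and MBD5 (0.067), here as limma adjusted p. Leaving out A39 replicate 2 ended those of FOXK1 (0.064), SCML2 (0.081) and MBD5 (0.052), leaving out A67 replicate 2 those of FOXK1 (0.071) and SCML2 (0.15), and leaving out either A50 array that of SCML2 (0.063 and 0.052). Averaging closest partners, which leaves 9 points, ended the CDKN2A calls of all of these but PHF19 with slopes of similar size (RBBP7 -0.16, E2F6 -0.14, FOXK1 0.16, SCML2 -0.20 and MBD5 0.17). It also ended the MKI67 calls of PHF19 and MBD5, again with similar slopes (0.54 and -0.34, limma adjusted p of 0.054 and 0.095). With both levels in 1 fit none of these calls held. There PHF19 had 0.32 on MKI67 and -0.20 on CDKN2A, SCML2 0.15 and -0.12, and MBD5 -0.28 and 0.07. In the passage trend 0 genes of these 3 lists passed, with medians of 0.018, 0.003 and 0.014 per 10 passages, against 0.012 for all rows.

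Developmental regulators that Polycomb is known to keep silent in somatic cells had low values, as a list. Of 20 listed, 17 were measured, with row means of 5.54 for PAX6 to 8.86 for ONECUT1 and a median of 6.95, below every array median. None (0 of 17) passed on MKI67, on CDKN2A or in the passage trend. LHX3 had the widest range, 1.21, with its highest value of 8.31 in A95 replicate 2, and OLIG2 the next, 1.05, with 6.87 in B96 replicate 2. In the passage trend 17 of 17 slopes were positive as deposited and 14 of 17 after quantile normalization or median centring, with a median of 0.034 against 0.012 for all rows as deposited and 0.016 against 0.003 after quantile normalization. Of all rows, 58.5% had positive slopes as deposited, 52.4% after quantile normalization and 50.5% after median centring. PAX2, LHX3, ONECUT1, SIM1 and NKX2-1 were highest in A95 replicate 2, and SOX1, GATA4 and FOXA2 in A95 replicate 1. The rest of the list was highest in arrays of other labels.

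The genes most like a member over the 14 arrays were ranked by Pearson's r among 18376 others. For EZH2 they were TICRR (0.991), a factor of replication initiation, GTSE1 (0.990), a gene expressed in the G2 and S phases, and ATAD5 (0.987), which unloads the replication clamp, and MKI67 stood at rank 57. TICRR ran from 7.20 in A50 replicate 1 to 8.99 in A95 replicate 1. For EED they were SRSF1 (0.972), ERI2 (0.965) and RFWD3 (0.963), with MKI67 at rank 476, and for SUZ12 they were ACTL6A (0.980), ESF1 (0.980) and NUP35 (0.979), with MKI67 at rank 1201. For JARID2 the first were PAWR (0.963) and THBS1 (0.954), which encodes the matrix protein thrombospondin 1 and read 12.72 in A67 replicate 1 and 13.41 in B96 replicate 2, its extremes. RING1 was most like OAS3 (0.923), an interferon-induced gene that read 6.85 in primary replicate 1 and 8.28 in primary replicate 2. EZH1 was most like ATP13A2 (0.916), and MEG3 (0.904) and MIR299 (0.903) of the imprinted 14q32 locus followed. CBX2 was most like CAMK2A (0.918), LIN7B (0.915) and PKD1 (0.888), and CBX7 like GK2 (0.825), HAL (0.820) and INPP5B (0.820), the lowest likeness of the 8. These ranks describe the 14 arrays and carry no test.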

How the data were processed

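RNA of WI-38 fibroblasts was measured on 14 Affymetrix human Gene ST 1.0 arrays, per the labels' protocols. The authors deposited log2 values, 28869 rows by 14 arrays; the log base is read from their range of 0 to 14.27, and how background was corrected, probes summarised and arrays normalized was not given in the sources used here. Rows were named from the platform's annotation, updated by gene ID through RefSeq (GRCh38.p14): 19310 rows had 1 symbol (19279 matched by gene ID), 1752 several and 7807 none. The row with the highest mean stood for a gene. Values were used unfiltered.

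Limma 3.58.1 in R 4.3.3 fitted slopes on MKI67 and CDKN2A (14 arrays), contrasts from a mean per group (14 arrays) and a passage slope (10 arrays labelled A), with Benjamini-Hochberg adjustment over all rows at 0.05, two-sided. Residual degrees of freedom were 12, 7 and 8. Correlations used 100000 permutations, two-sided (numpy 2.4.6, scipy 1.17.1), which treat arrays as independent. MKI67 and CDKN2A come from the same arrays as the members, so they share array effects. The number of arrays limits precision. The fits were tested on data simulated with independent arrays, which cannot show how the dependence of closest partners affects the p-values.

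The members and gene lists were chosen with earlier results of these data known. Named by rule were all members, up to 4 genes per list with the largest MKI67 slope past the threshold, the 2 developmental genes with the widest range, and the 3 genes most like a member. Alternatives were each array left out, quantile normalization, median centring, a block for replicate number, a filter at the 30th percentile, 1 row per gene, a trended robust prior, array weights, other covariates, and subsets of arrays.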

Additional observations from a re-analysis of the deposited data

How the results depend on the processing

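The MKI67 slope of EZH2 kept its sign and passed in all 29 alternatives (0.69 to 1.21), and that of EED passed in 26. The count of 2 members on MKI67 was 4 with array weights, and 1 with closest partners averaged, with CDKN2A added or with the 10 arrays of MKI67 above 10. It was 3, with SUZ12 as the third, with quantile normalization, the filter, 1 row per gene, the robust prior or the proliferation list in place of MKI67. It was also 3 without A95 replicate 2 and B96 replicate 1. With each array left out it was 2 to 3. The count of 3 members on CDKN2A was 1 with partners averaged (EED) and 0 with MKI67 added, and 2 to 3 with each array left out. Rows passing on MKI67 (1864) were 5450 with array weights, 435 with partners averaged, 978 without the 2 farthest arrays, 233 with CDKN2A added, 280 in the 10 arrays of MKI67 above 10 and 2916 without A95 replicate 2 and B96 replicate 1, the last 2 settings chosen after seeing the data, and 1114 (without A39 replicate 2; 1214 without A50 replicate 1) to 2195 with each array left out. Rows passing on CDKN2A (2082) were 4122 with array weights, 533 with partners averaged, 127 with MKI67 added and 369 in those 10 arrays, and 1175 (without A95 replicate 1) to 2313 with each array left out. Rows passing in the passage trend (81) were 159 with quantile normalization, 429 with median centring, 271 with the filter, 174 with 1 row per gene, 132 with the robust prior, 2171 with array weights (members 2, EZH2 and EED), 489 on ranks, 729 with passage as a random block, and 0 with MKI67 added, at passages 39 to 67 or with partners as a random block; leaving out 1 array gave 0 or 1 for 8 of the 10, 72 without A67 replicate 2 and 571 without A95 replicate 1. Leaving out arrays gave 0 to 6 rows for A39 versus primary, 0 to 4 for A95 versus A39 (2 with the compared groups alone) and 0 to 3 for B96 versus A95, always with 0 members. The cause of these shifts was not tested.

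Signs turned only for slopes or differences that had not passed. RING1 on MKI67 was -0.001 with the replicate block, -0.015 with array weights, -0.031 with partners averaged, -0.028 without the 2 farthest arrays, -0.009 with the proliferation list in place of MKI67, -0.56 above 10 and -0.027 without A95 replicate 2 and B96 replicate 1; CBX7 was 0 with the block, -0.008 with weights, -0.035 with partners averaged, -0.024 with the list, -0.42 above 10 and -0.016 without those 2 arrays; with each array left out they were -0.038 to 0.035 and -0.031 to 0.041. Without the 2 arrays farthest on CDKN2A, RING1 was -0.019, CBX2 -0.008, CBX7 -0.083 and the shared row 0.004; RING1 was -0.001 without both primary arrays. With each array left out these slopes were -0.011 to 0.022 for RING1, -0.006 to 0.072 for CBX2 and -0.018 to 0.042 for CBX7. JARID2 in A39 versus primary was -0.015 with median centring and 0 to 0.08 with arrays left out, and -0.35 to 0.64 in B96 versus A95. SUZ12 was -0.044 in the trend with MKI67 added, and with arrays left out -0.23 to 0.61 in A95 versus A39 and -0.49 to 0.34 in B96 versus A95.

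Same-numbered arrays did not pair: deviations correlated at -0.53 to 0.20 over 21 pairs of labels, and with the replicate block EZH2 and EED still passed on MKI67, while SUZ12 on CDKN2A was lost (-0.18, limma adjusted p of 0.060).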
